A study of Mus musculus with 9 samples.

Results

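The genes described here are 38 genes of DNA replication and the cell cycle: the MCM helicase and its loading factors, nucleotide-supplying enzymes, cyclins, cyclin-dependent kinases, their inhibitors, mitotic genes and the transcription factor E2f1. They were taken by name from the annotation of the probe sets. Of the 38 genes, 37 had a probe set that carried their symbol alone, out of 18193 genes tested, and they had 89 probe sets in all. Ccnb1, cyclin B1, was not analysed here.

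RNA of whole liver from male mice aged 14 weeks was measured on single-colour Affymetrix arrays, 1 array per sample. The 5 control samples came from BKS mice (C57BL/KSlepr+/+), which carry the intact leptin receptor gene. The 4 db/db samples came from littermates of the strain BKS.Cg-Leprdb, whose receptor mutation is germline and therefore present in every tissue. Both genotypes were fed regular chow, and the db/db mice were obese and diabetic with fatty liver at this age, per the study's design. The labels number the samples but do not say that each came from its own mouse. The p-values therefore speak only to sample-to-sample spread, which may be technical.

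Before a cell copies its DNA, the origin recognition complex, Cdc6 and Cdt1 load the MCM2-7 helicase onto origins, and Mcm10 then helps to activate it. D-type cyclins with Cdk4 or Cdk6 and cyclin E with Cdk2 release E2F factors from the retinoblastoma protein, E2F factors switch on the replication genes, and cyclins A and B with Cdk1 drive the cell into mitosis. Most hepatocytes of an adult liver are out of the cycle, and many are polyploid.

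Every level below is a log2(signal + 16) value after quantile normalization, from the brightest probe set of the gene, and every difference is db/db minus BKS on that scale. "Rose" and "fell" mark genes with a Benjamini-Hochberg adjusted p under 0.05 over all 18193 genes in limma's moderated test. Array medians ran from 67.4 to 110.8 in signal, and no pair of the 9 arrays held identical values. Control probe sets for 18S ribosomal RNA split the arrays into 5 with low signal (BKS 1 to 3, db/db 1 and 2) and 4 with high signal (BKS 4 and 5, db/db 3 and 4). Both sets hold both genotypes, and the labels name no batch. None of 10 hepatocyte markers was called, with albumin at 15.47 in BKS and 15.50 in db/db. The lowest of them were Ass1 (7.49 and 8.01) and Tat (14.10 and 14.53). Without adjustment 3 of the 10 had a limma p under 0.05, against 17.6% of all genes. Hpd was higher and Apoa1 and Fgb lower on every db/db array, while 9.15% of all genes did not overlap. The table has no detection calls. As a yardstick, 39 olfactory receptor genes, which liver is not known to express, had a 95th percentile of 6.83 in BKS and 6.84 in db/db.

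Few of the 37 genes differed between the genotypes. Mcm10 and Mcm7 fell in db/db liver, and none of the 37 rose. The 2 called genes are 5.41% of the 37, against 5.49% of all genes tested. Without adjustment, 8 genes (21.6%) had a limma p under 0.05, against 17.6% of all genes. The 2 genotypes did not overlap for 5 genes (13.5%), against 9.15% of all genes. Mcm10, Mcm7 and Cdk2 were lower on every db/db array (4.42% of all genes were), and Pcna and Cdkn2c higher on every one (4.73% of all genes). With the 18S split in the model as a block, Mcm10 and Mcm7 again were the called genes, against 8.23% of all genes. The median difference of the 37 was -0.19, with 17 positive and 20 negative values, against -0.00 over all genes. It was 0.04 without db/db 3. These shares lie near those of all genes, so nothing particular to the 37 genes as a whole is read from them.

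**Figure D1:**
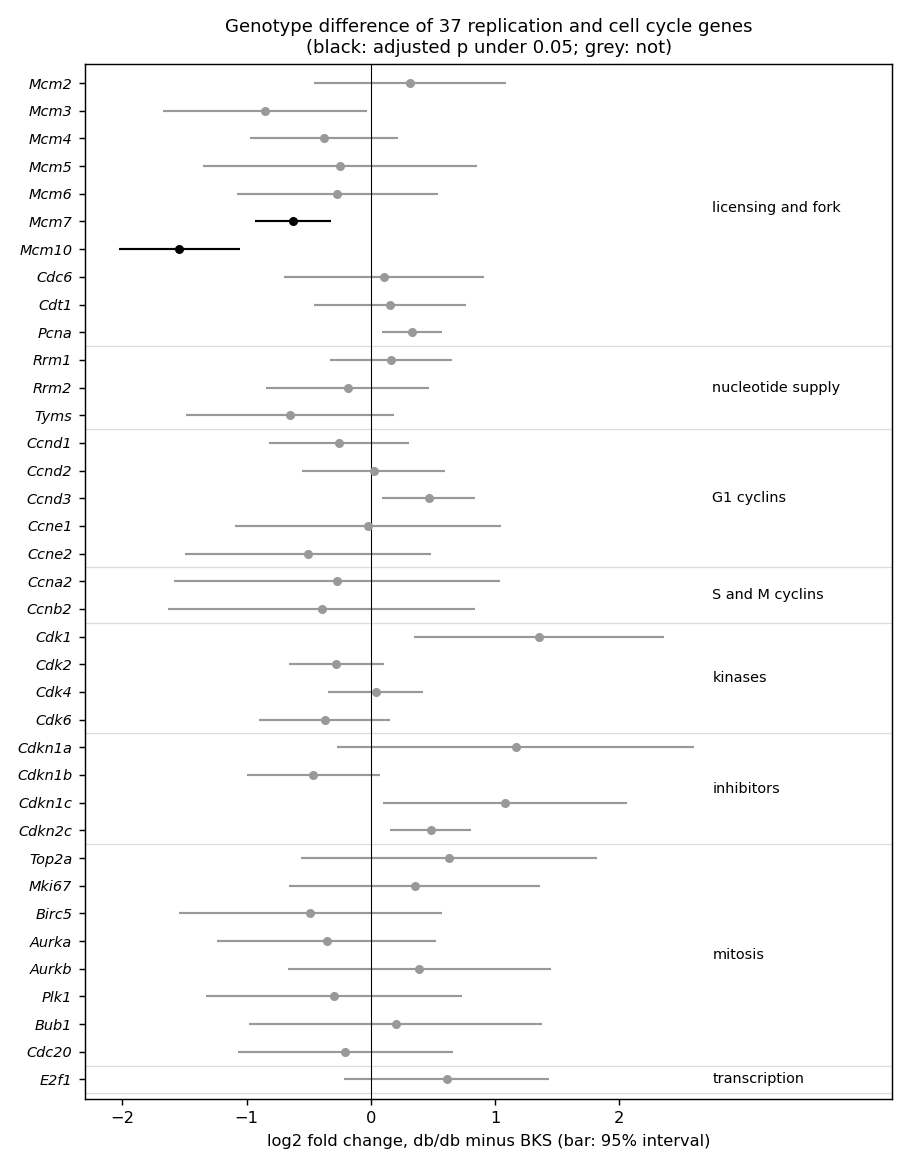
Log2 fold change (db/db minus BKS, 5 and 4 arrays) of the 37 genes with 95% limma intervals, in blocks by role. Mcm10 at -1.54 and Mcm7 at -0.63 are the only called genes, and the intervals of the mitotic genes all cross 0.

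Mcm10, which binds the loaded helicase and helps it to unwind DNA, had the largest difference among the 37. Its level was 12.04, 11.93, 11.24, 12.40 and 12.47 on BKS arrays 1 to 5 and 10.71, 10.70, 10.09 and 10.40 on db/db arrays 1 to 4. Every db/db array lay below every BKS array. The means were 12.02 ± 0.49 (SD, n = 5) and 10.47 ± 0.30 (SD, n = 4), a 2.91-fold lower level in db/db (difference -1.54, SE 0.23, 95% interval -2.03 to -1.05, limma adjusted p = 0.00114). In bulk tissue, fewer cells that express a gene and less RNA per cell cannot be told apart. The low 18S arrays gave -1.03 and the high ones -2.19. A test of this gap did not pass (interaction -1.16, SE 0.31, limma adjusted p = 0.522). Without adjustment 4 of the 37 genes (Mcm10, Ccnd1, Cdk4 and Cdkn1a; 10.8%) had an interaction p under 0.05, against 6.65% of all genes.

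The 3 probe sets of Mcm10 disagreed. The second set, annotated to the same transcript record as the called one, lay at 6.82 ± 0.50 in BKS (SD, n = 5) and 6.57 ± 0.18 in db/db (SD, n = 4) and differed by -0.25. The remaining set lay at 5.15 ± 0.61 and 4.95 ± 0.47 and differed by -0.21. Both of these sets lay within the range of the olfactory receptor genes in both genotypes. With the mean of the 3 sets the difference was -0.67 and Mcm10 was no longer called (limma adjusted p = 0.0901). It was also lost in the low 18S arrays alone (-0.99, adjusted p = 0.0526). The fall of Mcm10 therefore rests on 1 of its probe sets.

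Mcm7, a subunit of the helicase ring, had levels of 10.35, 10.02, 10.09, 10.27 and 9.94 on the BKS arrays and 9.42, 9.40, 9.56 and 9.65 on the db/db arrays. All 4 db/db values were below the lowest BKS value. The means were 10.13 ± 0.17 (SD, n = 5) and 9.51 ± 0.12 (SD, n = 4), a 1.54-fold lower level (difference -0.63, SE 0.14, 95% interval -0.93 to -0.32, limma adjusted p = 0.0191). Here the 4 probe sets had the same sign, at -0.63, -0.52, -0.57 and -0.77, each with an unadjusted limma p under 0.05 when tested on its own (0.0201 at most). Their mean differed by -0.62 (limma adjusted p = 0.0293). The low 18S arrays gave -0.75 and the high ones -0.50. The call was lost without db/db 1 (-0.60, limma adjusted p = 0.0593), without db/db 2 (-0.59, adjusted p = 0.0545) and with median centring (-0.57, adjusted p = 0.118). It was lost too with an untrended variance prior (adjusted p = 0.0675), with the probe set of largest variance (-0.77, adjusted p = 0.243), and in the low (adjusted p = 0.0782) or the high (adjusted p = 0.273) 18S arrays alone.

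**Figure D2:**
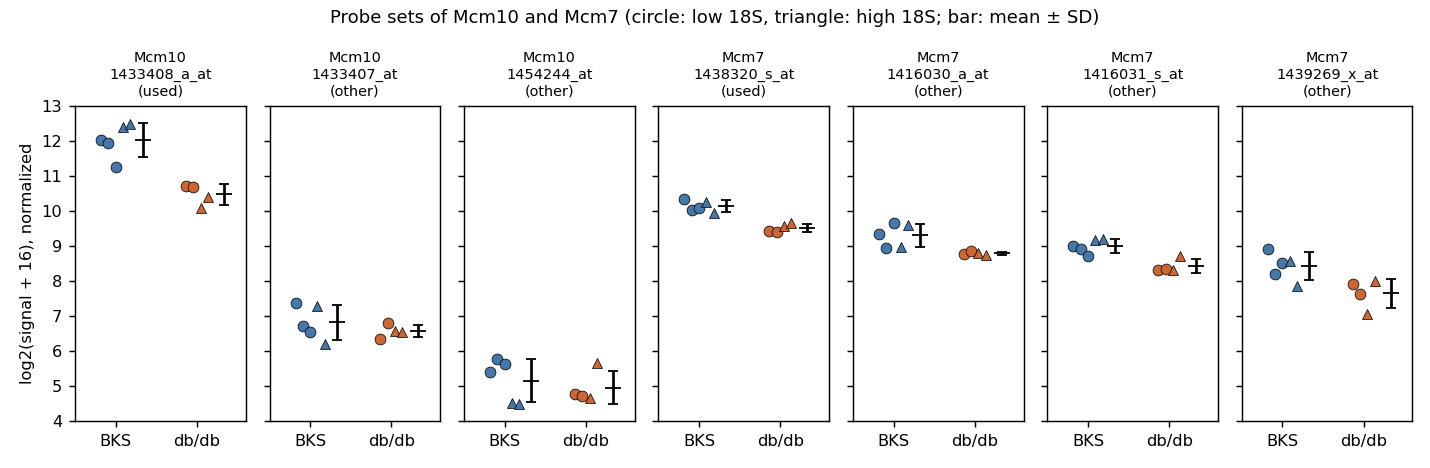
Log2(signal + 16) of the 3 probe sets of Mcm10 and the 4 of Mcm7 on each array, with the mean ± SD beside each genotype (n = 5 and 4); circles are low and triangles high 18S arrays. The db/db mean is lower on all 4 Mcm7 sets, by differences from -0.77 to -0.52, with some arrays overlapping, and of the Mcm10 sets 1 shows the genotypes apart, at -1.54.

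Replication genes are textbook targets of E2F factors, and mitotic genes carry a cell cycle homology region (CHR) that recruits the MuvB complex. The promoters of the members were searched for the E2F words TTTCCCGC, TTTCGCGC, TTTGCCGC and TTTGGCGC, for the CHR word TTTGAA and for CCAAT, on both strands. Each promoter runs from 250 bases before to 50 bases after the annotated start (RefSeq, GRCm38.p6), and 31 of the 38 genes had an entry, 35 promoters in all. Aurkb, Ccna2, Ccnd1, Ccnd2, Ccne2, Cdkn1c and Mcm4 were not matched. An E2F word stood in promoters of 8 genes (Cdc6, Cdk1, Cdk2, Cdt1, Mcm3, Mcm5, Mcm6 and Mcm7), while 2.26% of all 32851 promoters of that length hold one. A CHR word stood in 8 genes (Aurka, Ccnb2, Cdc20, Cdk1, Mcm2, Mki67, Plk1 and Top2a; 17.9% of all promoters), and CCAAT in 22 (37.4% of all promoters). A match is a run of letters and no evidence of binding.

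The following sites show helicase subunits, the loading factor Cdc6 and kinases beside the called Mcm7, each with 11 flanking bases where the promoter reaches that far and the E2F word, or its reverse complement, in capitals.
Mcm7, chr5:138172030-138172059, minus strand: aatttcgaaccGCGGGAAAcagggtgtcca
Mcm7, chr5:138171849-138171878, minus strand: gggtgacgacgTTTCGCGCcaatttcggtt
Mcm3, chr1:20820275-20820304, minus strand: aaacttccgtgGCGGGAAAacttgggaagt
Mcm5, chr8:75109345-75109374, plus strand: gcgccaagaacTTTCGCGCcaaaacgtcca
Mcm6, chr1:128359734-128359763, minus strand: gattggacgggTTTGGCGCgaagtagctca
Cdc6, chr11:98908002-98908031, plus strand: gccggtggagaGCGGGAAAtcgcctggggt
Cdk1, chr10:69353025-69353054, minus strand: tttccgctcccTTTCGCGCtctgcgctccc
Cdk2, chr10:128705173-128705202, minus strand: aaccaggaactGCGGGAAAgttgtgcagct

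Of the 8 genes with an E2F word, 5 had a negative difference and Mcm7 alone was called. Of all 18193 genes, 9142 had a negative difference and 5.49% were called. Mcm3 stood at -0.85, Cdk2 at -0.28, Mcm6 at -0.27 and Mcm5 at -0.25. Cdc6 stood at 0.11, Cdt1 at 0.16 and Cdk1 at 1.35. The sign depended on the probe set for several of them. A dimmer set of Mcm3 (0.81), Cdk2 (0.265), Mcm5 (0.20) and Mcm6 (0.155) lay above 0, and a dimmer set of Cdt1 (-0.24) below it. No test was made of these genes as a group. Both Mcm7 words lie in the same promoter entry, and the other Mcm7 entry held no E2F word. Counted from 0 at the annotated start of their entry, the first Mcm7 word starts at -165 and the second at 16. The second shares 1 base with a CCAAT, and the Mcm5 word shown shares 4 bases with another E2F word. Mcm6 has a further pair of E2F words, not shown, that share 4 bases. The Mcm10 promoter held no E2F word among the 4 searched. It is shown because this gene had the largest difference, with its 2 CCAAT words before the start in capitals.
Mcm10, chr2:5012792-5013041, minus strand: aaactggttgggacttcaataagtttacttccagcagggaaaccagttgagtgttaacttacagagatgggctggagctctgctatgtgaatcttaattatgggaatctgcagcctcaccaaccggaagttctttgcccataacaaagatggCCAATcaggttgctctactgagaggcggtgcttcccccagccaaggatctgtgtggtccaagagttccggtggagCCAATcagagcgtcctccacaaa

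The other 5 subunits of the helicase ring did not pass the test. Mcm3 came closest among them, at 6.69, 7.13, 6.33, 6.53 and 7.38 in BKS and 6.19, 6.02, 5.12 and 6.51 in db/db (difference -0.85, SE 0.38, limma adjusted p = 0.258). Its groups overlapped, and both means were within the olfactory receptor range. The other probe sets of Mcm3 stood at 0.81, -0.81, -0.38 and -0.31, so its sets disagreed in sign. Mcm4 stood at -0.38, Mcm6 at -0.27, Mcm5 at -0.25 and Mcm2 at 0.31, with 95% intervals that all cross 0. The other probe set of Mcm2 stood at 0.955 and was not called. Mcm5 was at 4.38 on db/db 3 and at 6.84 to 7.06 on the other db/db arrays. The loading factors Cdc6 (0.11, 95% interval -0.70 to 0.91) and Cdt1 (0.16, -0.46 to 0.77) showed no difference detectable with this number of arrays.

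Pcna, the sliding clamp of the replicative polymerases, pointed the other way from Mcm7. Its levels were 11.33, 11.10, 11.17, 11.46 and 11.36 in BKS and 11.63, 11.53, 11.74 and 11.55 in db/db. The genotypes did not overlap, yet the difference of 0.33 (SE 0.11, 95% interval 0.09 to 0.58) missed the threshold (limma adjusted p = 0.119, and 0.0701 with the 18S split as a block). Among the enzymes that supply nucleotides, Tyms, thymidylate synthase, stood at -0.65 (limma adjusted p = 0.432). It was at 6.71 on db/db 3 and at 5.18 to 5.33 on the other db/db arrays. Rrm1 and Rrm2, the subunits of ribonucleotide reductase, stood at 0.16 and -0.19.

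Cyclins were not called in either direction. Ccnd3, cyclin D3, had the smallest p among the cyclins, with 10.25, 9.97, 9.67, 10.18 and 9.96 in BKS and 10.31, 10.85, 10.59 and 10.13 in db/db (difference 0.46, SE 0.17, limma adjusted p = 0.163). Only db/db 4 lay inside the BKS range. Ccnd1, cyclin D1, the G1 cyclin that rises in regenerating liver, stood at -0.26 (SE 0.26). Its 3 probe sets had the same sign, from -1.15 to -0.26, and none was called. It stood at -0.59 in the low 18S arrays and 0.26 in the high ones (interaction 0.85, SE 0.37, limma adjusted p = 0.726). Ccnd2 (0.02) and Ccne1 (-0.02) were close to 0 on their brightest probe sets. The other probe set of Ccne1, whose BKS mean was above that of the set used, stood at -1.02. It was not called when each set was tested (limma adjusted p = 0.446). The value near 0 thus rests on 1 of the Ccne1 sets. The dimmer sets of Ccnd2 ran from -0.48 to 0.95, and none was called. The 95% interval of Ccnd2 ran from -0.55 to 0.60 and that of Ccne1 from -1.09 to 1.05. The other cyclin E gene, Ccne2 (-0.50), and the cyclins of S phase and mitosis, Ccna2 (-0.27) and Ccnb2 (-0.39), lay within the olfactory receptor range in both genotypes, and Ccna2 spread over 4.43 to 7.07 within BKS.

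Of the kinases, Cdk1, which drives entry into mitosis, had the largest difference. It was at 6.71, 6.20, 4.78, 5.68 and 7.31 in BKS and at 7.53, 7.11, 7.93 and 7.39 in db/db. One db/db array, db/db 2, lay below the highest BKS array. The difference was 1.35 (SE 0.46, 95% interval 0.35 to 2.36) and did not pass (limma adjusted p = 0.125). It passed narrowly without BKS 5 (difference 1.65, adjusted p = 0.0493). The BKS mean of 6.14 was inside the olfactory receptor range and the db/db mean of 7.49 above it. Its cyclin partners Ccna2 and Ccnb2 had negative differences and were not called. The other probe set of Ccna2 stood at 0.47, so the sign of Ccna2 depends on the set.

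Cdk2, the partner of cyclins E and A, was 8.56 to 8.69 in BKS and 8.25 to 8.54 in db/db. Its groups did not overlap, but the difference was small (-0.28, SE 0.18, limma adjusted p = 0.471). Cdk4, a partner of the D cyclins, stood at 0.04 on its brightest probe set (95% interval -0.34 to 0.42) and at -0.03 on the next. Its dimmest set was higher on every db/db array. It lay at 7.53, 8.12, 7.79, 8.44 and 7.93 in BKS and at 8.94, 8.58, 9.33 and 8.91 in db/db (difference 0.98, SE 0.24). When each of the 45101 probe sets was tested, this set rose (limma adjusted p = 0.0450). It was the only one of the 89 probe sets to rise, and 1 set each of Mcm10 and Mcm7 fell, while 2.76% of all probe sets were called. With the 18S block in that test the same 3 sets were called, against 4.84% of all probe sets. Of the 27 genes with several probe sets, 12 had all sets on the same side of 0.

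Cdk6, the other partner of the D cyclins, differed by 18S set on its brightest probe set. Its levels were 11.33, 11.22 and 10.85 on the low and 10.45 and 10.20 on the high BKS arrays, and 10.77 and 10.80 on the low and 10.03 and 10.15 on the high db/db arrays. The genotype difference was -0.37 (SE 0.24, limma adjusted p = 0.486). The high arrays were lower by 0.75 once genotype was in the model (log2 difference -0.75, limma adjusted p = 0.00431). Cdk6 was the only one of the 37 genes (2.70%) with a called difference between the sets, against 3.50% of all genes. Its second probe set went the other way. There the high 18S arrays were at 9.92 and 9.99 in BKS and 10.23 and 10.22 in db/db, above all low ones (9.17 to 9.74 and 9.66 to 9.81), and the genotype difference was 0.29 (SE 0.20). The third set, within the olfactory receptor range, differed by -0.06. The lower Cdk6 level on the high arrays thus rests on 1 probe set.

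The inhibitors of cyclin-dependent kinases had mostly positive differences, 3 of 4, and none was called. Cdkn2c, which encodes p18 and blocks Cdk4 and Cdk6, came nearest. It was at 9.62, 9.78, 9.35, 9.30 and 9.39 in BKS and at 9.82, 10.01, 10.13 and 9.93 in db/db. All db/db arrays lay above all BKS arrays, with db/db 1 above BKS 2 by the smallest margin. The difference was 0.48 (SE 0.15, 95% interval 0.16 to 0.81, limma adjusted p = 0.0897, and 0.0529 with the 18S split as a block). It passed when genes under the median signal were left out of the test (adjusted p = 0.0467). Cdkn1c, which encodes p57, stood at 1.08 (SE 0.45, limma adjusted p = 0.226). It was at 5.12 on db/db 1, inside the BKS range of 4.87 to 5.77, and at 6.10 to 7.34 on the other db/db arrays. Both its means were within the olfactory receptor range. Cdkn1b, which encodes p27, stood at -0.46 (SE 0.25, limma adjusted p = 0.373), and its groups overlapped.

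Cdkn1a, which encodes p21 and is the classic p53-induced arrest gene, depended on the set of arrays. Its level was 9.78, 9.34 and 9.45 on BKS 1 to 3 but 6.27 and 7.06 on BKS 4 and 5. In db/db it was 8.52, 9.80, 9.39 and 10.47. The low BKS arrays thus lay among the db/db values and the high BKS arrays far below them. Over all arrays the difference was 1.17 (SE 0.67, limma adjusted p = 0.408). The low 18S arrays gave -0.36 and the high ones 3.27. The interaction was 3.63 (SE 0.61) and did not pass over all genes (limma adjusted p = 0.125), where 6 genes did (0.033%). When the high arrays were normalized and tested alone, Cdkn1a passed (limma adjusted p = 0.0107, 2 against 2 arrays). That fit reuses the values of BKS 4 and 5 for which Cdkn1a was singled out, so it is no separate evidence. Its other probe set had an overall difference of -0.07, which does not bear on the split. That set was at 6.44, 7.96 and 7.44 on BKS 1 to 3 and at 5.37 and 7.30 on BKS 4 and 5. In db/db it was 7.50, 6.34, 5.38 and 8.12. There BKS 4 was low as well, but BKS 5 was not, and db/db 3 was nearly as low as BKS 4. Whether the 18S signal has a part in the low values of BKS 4 and 5 was not tested.

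**Figure D3:**
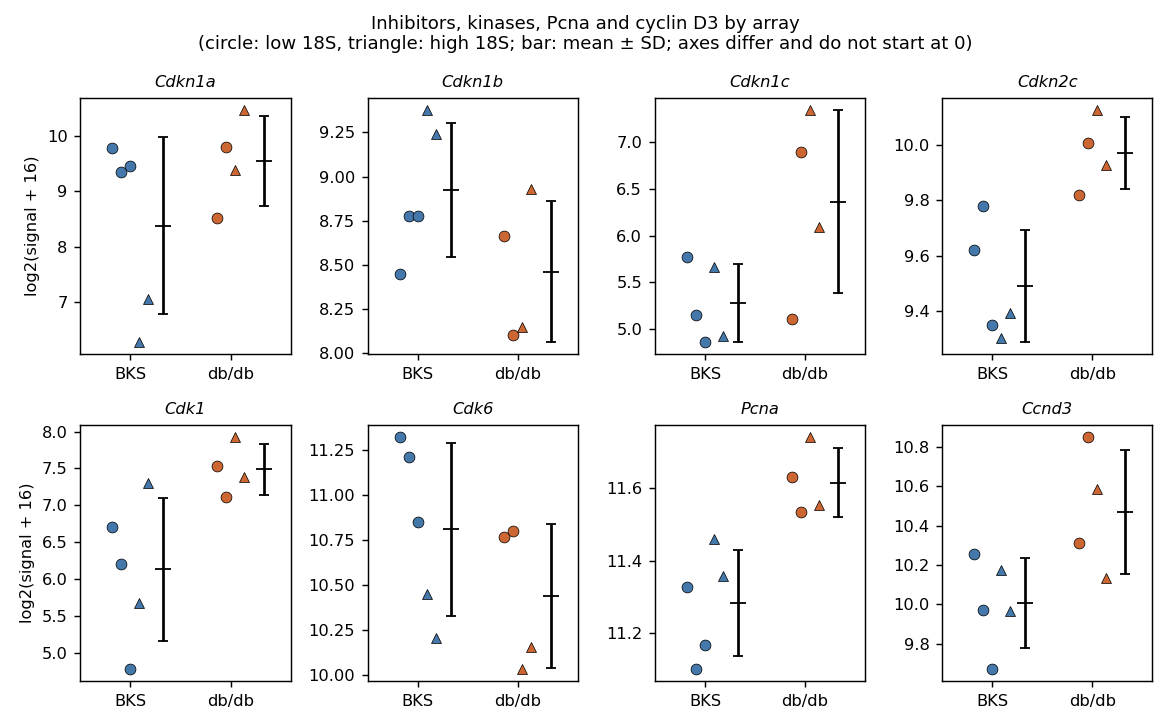
Log2(signal + 16) of the 4 inhibitors and of Cdk1, Cdk6, Pcna and Ccnd3 on each array, with the mean ± SD (n = 5 and 4); circles are low and triangles high 18S arrays, and the vertical axes differ and do not start at 0. The 2 BKS triangles of Cdkn1a lie at 6.27 and 7.06, below all other arrays, and the triangles of Cdk6 lie low in both genotypes on the probe set drawn.

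The mitotic genes were dim and were not called. Top2a, which untangles sister chromatids, Mki67, the source of the proliferation antigen Ki-67, Birc5, which encodes survivin, the Aurora kinases Aurka and Aurkb, the polo kinase Plk1 and the checkpoint kinase Bub1 all had means within the olfactory receptor range in both genotypes. Among the 8, only Cdc20, an activator of the anaphase-promoting complex, was above it. The differences ran from -0.49 for Birc5 to 0.63 for Top2a, 4 of them positive and 4 negative, with a median of -0.00. Top2a was at 6.14, 5.69, 7.07, 4.33 and 4.30 in BKS and 6.61, 6.52, 5.74 and 5.68 in db/db. Within each genotype the 2 high 18S arrays were the lowest, and the low set gave a difference of 0.27 and the high set 1.39. Mki67 was at 4.71 to 6.54 in BKS and 5.05 to 6.78 in db/db (difference 0.35, 95% interval -0.66 to 1.36). The interval of Mki67 thus includes both a fall and a rise, and these arrays set no close bound on it. In all, 15 of the 37 genes (40.5%) lay in the olfactory receptor range in both genotypes.

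Sites of the CHR word are shown for 4 of these genes and the mitotic cyclin Ccnb2, to set the letters they share beside differences that were not called, with the word in capitals.
Mki67, chr7:135716461-135716488, minus strand: cgccgttttggTTTGAAtcgggcgggct
Top2a, chr11:99024352-99024379, minus strand: tattggtccatTTTGAAgattctcccgc
Ccnb2, chr9:70421534-70421561, minus strand: gcggcgcggtaTTTGAAtcgcggaccgg
Cdc20, chr4:118437345-118437372, minus strand: gacagttgggtTTTGAAggagccaatga
Plk1, chr7:122159454-122159481, plus strand: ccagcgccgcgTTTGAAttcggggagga

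**Figure D4:**
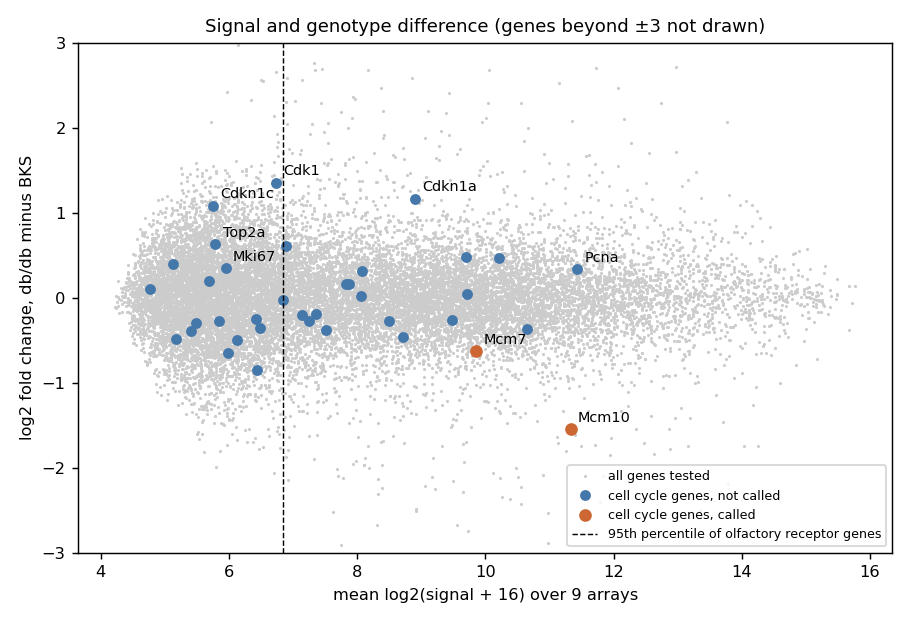
Mean log2(signal + 16) over the 9 arrays against the log2 fold change (db/db minus BKS) for all 18193 genes in grey and the 37 cell cycle genes in colour; the dashed line is the 95th percentile of 39 olfactory receptor genes. Most mitotic genes lie left of the line, and the called Mcm10 and Mcm7 lie well to its right.

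E2f1, the transcription factor, stood at 0.61 (SE 0.38, limma adjusted p = 0.459), with overlapping groups. Across the 37 genes db/db 3 stood apart from its group. It had the lowest db/db value for 15 genes (40.5%), against 24.2% of all genes, and the median of its values lay 0.37 below the BKS means. The medians of the other 8 arrays lay between -0.08 and 0.17. The array db/db 4 had the highest db/db value for 14 genes (37.8%), against 26.4% of all genes. Both belong to the high 18S set. Whether the split has a part in these opposite shifts was not tested.

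**Figure D5:**
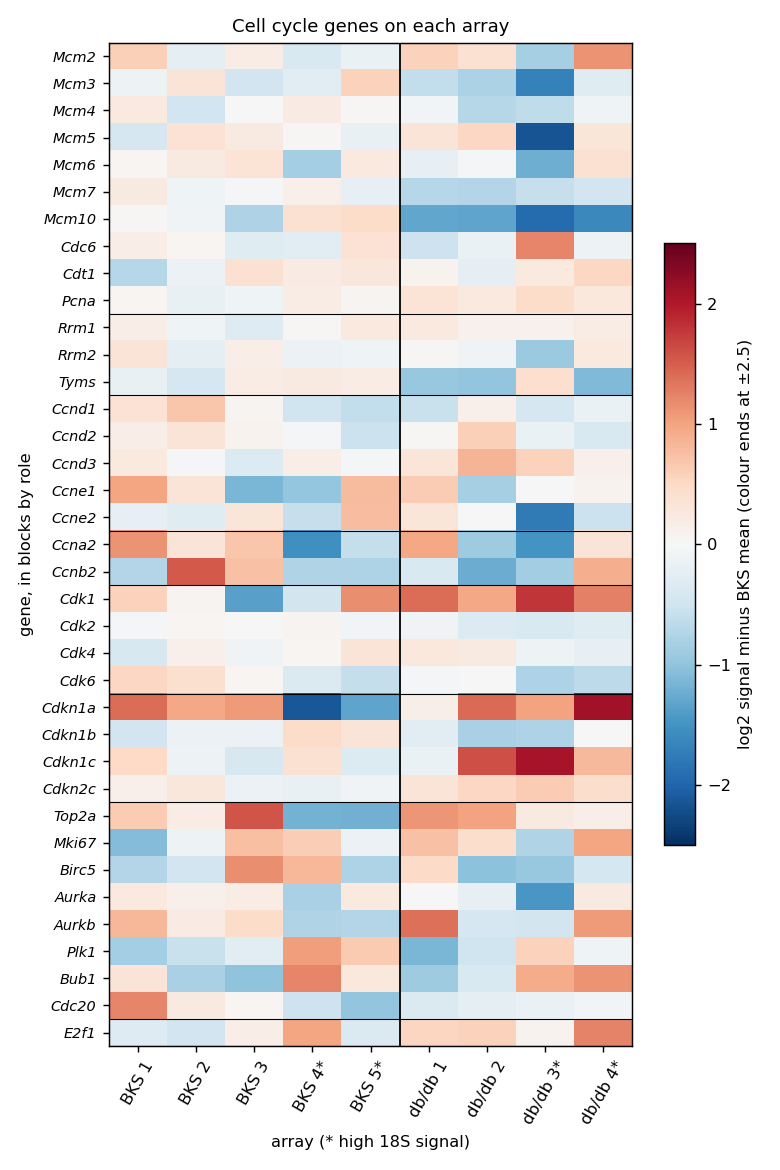
Log2 signal of the 37 genes minus the gene's BKS mean on each of the 9 arrays, in blocks by role; red is higher and blue lower, and stars mark the 4 high 18S arrays. Mcm10 and Mcm7 are blue on all 4 db/db arrays, Cdkn1a is dark blue on BKS 4 and 5, and db/db 3 is blue for many genes, its median lying 0.37 below the BKS means.

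Other genes of the same machinery were taken from lists drawn up with earlier results of these data known. None of 40 other replication genes, such as origin recognition, GINS and polymerase subunits, was called, against 5.49% of all genes. Of them 1 had an unadjusted limma p under 0.05, lower in db/db, against 17.6% of all genes. Their median was -0.05. Of 43 other mitosis genes none rose and 2 fell, against 2.89% rising and 2.60% falling among all genes. Cks1b, a Cdk-binding subunit, was at 10.80 to 12.21 in BKS and 10.12 to 10.75 in db/db, with no overlap (2.22-fold lower, limma adjusted p = 0.00908). Its other probe set differed by -0.11. Smc4, a condensin subunit, fell 1.65-fold (limma adjusted p = 0.0244), but its other probe sets stood at 0.29 and 0.76, and the call held in only 3 of 9 fits that left out 1 array.

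Among 33 E2F, RB and related regulators 1 rose and 1 fell, against 2.89% rising and 2.60% falling among all genes. E2f8, an atypical E2F that represses E2F targets and promotes polyploidy in hepatocytes, had the largest fall of all the cell cycle genes examined. It was at 9.80, 8.05, 7.78, 9.35 and 8.75 in BKS and 6.08, 6.63, 5.48 and 6.71 in db/db. Its groups did not overlap (difference -2.52, SE 0.43, limma adjusted p = 0.00335), with -2.19 among low and -2.95 among high 18S arrays. The db/db mean of 6.22 and all 4 db/db values lay within the olfactory receptor range, so no fold is given. The other probe set of E2f8 lay in that range in both genotypes, at 4.65 and 4.60. Wee1, the kinase that holds Cdk1 inactive, rose 2.39-fold (limma adjusted p = 0.0184). Its second probe set also rose when each set was tested, by 2.31 (adjusted p = 0.00965), from a BKS mean of 5.63 within the olfactory receptor range. Of the 9 fits that left out 1 array, Wee1 lost its call only in the one without db/db 3 (1.05, adjusted p = 0.0751).

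Of 21 p53 target genes 2 rose and none fell, against 2.89% rising and 2.60% falling among all genes, and 17 of the 21 differences were positive (median 0.36, against -0.00 over all genes). Ei24 rose 1.54-fold (limma adjusted p = 0.00412) and Ddit4, an inhibitor of mTOR signalling, 1.96-fold (adjusted p = 0.0319, kept in 4 of 9 fits that left out 1 array). The low 18S arrays gave a median of 0.34 and the high ones 0.31.

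Of 56 markers of other cell types 4 were called (7.14%), against 5.49% of all genes. None of 10 macrophage markers was called, yet 8 of 10 were lower in db/db (median -0.50), and their summed signal ran from 6340 to 17756 in BKS and from 4031 to 9571 in db/db. In the model with the 18S block 2 of them fell. Of these markers 6 differed between the 18S sets, against 3.50% of all genes. The low 18S arrays gave a median of -0.65 and the high ones -0.07. All 10 measured lymphocyte markers had lower means in db/db (median -0.18, none called, summed signal 834 to 1790 and 651 to 1038), and 7 lay within the olfactory receptor range. The largest difference among them was that of Cd4, at -1.39 with no overlap (limma adjusted p = 0.0539). Cd79a stood at -0.69 and Ptprc at -0.56. Cd4 and Cd79a are among those within the olfactory receptor range, and Ptprc is not. Neutrophil markers had no call (6 genes, median -0.39, summed signal 473 to 1013 and 471 to 871). Of 6 erythroid markers Alas2, the erythroid form of the first enzyme of heme synthesis, fell (difference -1.20, limma adjusted p = 0.0114), and 4 lay within the olfactory receptor range. Their summed signal was 2393 to 4309 in BKS and 1248 to 2487 in db/db. It mostly follows Alas2, the brightest at 11.47 and 10.26, with Klf1 next at 7.89 and 8.31. The list median was -0.13, with 3 positive and 3 negative differences. Of 9 endothelial markers Bmp2 fell (-1.23, limma adjusted p = 0.0286), with a list median of 0.08 and a summed signal of 2650 to 5128 and 2510 to 4809. Others were higher in db/db without a call, Pecam1 by 1.55 (adjusted p = 0.112, and 0.0470 with the 18S block), Lyve1 by 0.79, Eng by 0.46, Tek by 0.16 and Kdr by 0.08. The BKS mean of Pecam1, 5.66, lay within the olfactory receptor range. Cdh5 (-0.37), Clec4g (-0.16) and Stab2 (-0.045) were lower in db/db without a call. Of 9 stellate cell markers Ecm1 rose (0.94, adjusted p = 0.0322), with a list median of 0.20 and sums of 4705 to 17207 and 8242 to 17698. Lrat stood at 0.94 (adjusted p = 0.0851, and 0.0398 with the 18S block), Des at 1.03 and Col3a1 at -0.52. Of 6 cholangiocyte markers Krt23 rose (2.56, adjusted p = 0.00137), from a BKS mean of 5.36 within the olfactory receptor range, with sums of 549 to 701 and 576 to 890. The list median was -0.22. Sox9 stood at -1.51 (adjusted p = 0.0800, and 0.0268 with the 18S block), Krt7 at -1.06 and Krt19 at -0.47. The part of these cell types in the differences of Mcm10, Mcm7 and E2f8 was not tested.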

How the data were processed

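The authors deposited a linear intensity for each probe set of each array, and the 2% trimmed mean was 500.003 to 500.005 on every array. Software and background correction: not given in the sources used here. The 45101 deposited intensities per array were turned to log2(intensity + 16), which understates folds of dim genes, and quantile normalized. Of the probe sets 34945 had 1 gene symbol, 932 several, 9160 were not listed and 64 were controls. Each gene was taken at its probe set of highest mean, with no filter. limma 3.58.1 in R 4.3.3 (lmFit and eBayes with trend, genotype as the only term, two-sided) was run over 18193 genes with Benjamini-Hochberg adjustment, and the steps were tested on simulated data. The number of arrays, 5 and 4, limits the precision. Promoters came from RefSeq (GRCm38.p6).

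The members and lists were chosen with earlier results of these data known. Called members, those with an unadjusted p under 0.05, up to 2 per role by smallest p and the called genes of other lists were named. Cdkn1a, Cdk4, Cdk6, Ccnd1 and others beyond this rule were singled out after their values were seen. Alternatives changed the normalization, pseudocount (1 and 64), dim filter, probe set rule, variance prior, array weights, 18S block, 18S sets, replicate block and arrays left out. The interaction and 2 combinations of the 18S block with a probe set rule were chosen after seeing the data.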

Additional observations from a re-analysis of the deposited data

Results flagged for a closer look

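Among 74 groups (37 genes in each genotype) 4 held 1 array far from the others by Dixon's ratio, about as many as the 1 in 20 that chance gives. Mcm5 was at 4.38 on db/db 3, with the other db/db arrays at 6.84 to 7.06. Tyms was at 6.71 on db/db 3, with the others at 5.18 to 5.33. Mcm6 was at 6.52 on BKS 4, against 7.41 to 7.71. Aurka was at 5.83 on BKS 4, against 6.76 to 6.89. Both arrays belong to the high 18S set.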

How the results depend on the processing

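Of 31 single-gene results under 17 alternatives, 14 of 516 values changed sign, as did 5 of 279 with 1 array left out. The cause was not tested. No member rose in the reported fit, but 1 did with genes above the median signal (Cdkn2c) and 1 in the high 18S arrays alone (Cdkn1a), and 0 to 1 with an array left out (Cdk1, without BKS 5). The 2 members that fell became 1 with median centring, the mean of the probe sets (with or without the 18S block), the probe set of largest variance, no trend or the high 18S arrays alone, 0 in the low 18S arrays alone, and 1 to 2 with an array left out. The members' median of -0.19 became 0.031 with the dim filter, 0.06 with the mean of the probe sets (0.049 with the 18S block too), 0.017 in the high 18S arrays, and -0.245 to 0.044 with an array left out (-0.01 without BKS 2). In the other cell cycle lists the 3 genes that rose became 5 with the dim filter or the 18S block, 0 without trend or in the low 18S arrays, 1 in the high 18S arrays and 1 to 4 with an array left out. The 3 that fell became 1 with median centring or the mean of the probe sets (with or without the 18S block), 0 in the low 18S arrays and 2 to 4 with an array left out. The share of all genes called is not given for most of these alternatives, so their counts are not set against all genes.

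With the probe set of largest variance Tyms stood at 0.45, Cdk2 at 0.27 and Smc4 at 0.29. With the mean of the probe sets Ccna2 stood at 0.10 and Smc4 at 0.11, and with the 18S block added Ccna2 at 0.16, Cdk2 at 0.028 and Smc4 at 0.16. In the high 18S arrays alone Ccnd1 stood at 0.28, Ccna2 at 0.49, Ccnb2 at 0.78 and Cdk4 at -0.37. In the low 18S arrays alone Ccne2 stood at 0.22 and Cdkn1a at -0.34. With 1 array left out Ccna2 ran from -0.69 to 0.13 (0.006 without BKS 1) and Cdk4 from -0.061 to 0.12 (-0.036 without db/db 1 and -0.025 without db/db 2). Genes below the median signal have no value under the dim filter.

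Whether equal sample numbers mark pairs is not known. The correlations of the deviations of same-numbered arrays were 0.03, 0.17, -0.07 and 0.13. Of 8 arrays 4 correlated best with their own number, which was not tested against chance. With the replicate block, 596 genes rose and 550 fell over all genes, against 526 and 473 without it. Of the members 0 rose and 2 fell, with a median of -0.13, and of the other cell cycle lists 4 rose and 3 fell. The signal over background limits the 15 members in the olfactory receptor range.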
